A study of Mus musculus with 12 samples.

Results

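The response to tumor necrosis factor (TNF) that was common to mouse embryonic fibroblasts (MEFs) of 3 genotypes was measured as the mean, over the genotypes, of the difference in log2 signal between TNF-treated and untreated cells. All 12 of the 12 arrays of the series entered, with 2 arrays in each of 6 groups: WT MEFs, Rela-/-Nfkb2-/- MEFs and Rela-/-Relb-/-Rel-/- MEFs given recombinant TNF at 10 ng/ml for 6 h, and untreated cells of the same genotypes. Of 10031 features tested (9251 named genes and 780 probes with no gene name), each detected on both arrays of at least 1 group, 1456 passed the test of the mean effect and moved in 1 direction in all 3 genotypes, and these are the genes described here. All cells came from the strain C57BL/6 and were immortalized fibroblasts derived from embryos. Untreated arrays are listed at 0 h, and no untreated group is named for 6 h. Effects of TNF and of 6 h in culture therefore cannot be told apart. Each genotype may be a single immortalized line, so that effects of a line and of its deletions cannot be told apart. The submitters call the arrays of a group biological replicates. Whether those were separate cultures is stated nowhere in the labels or methods, and the p-values cover only the spread between these arrays, which may be technical.

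TNF binds its receptor on the cell surface and activates NFκB, a family of dimeric transcription factors, together with the MAP kinases JNK, p38 and ERK, which act on AP-1 and serum response factor. In fibroblasts TNF is known for inducing chemokines, cytokines, matrix proteases, prostaglandin synthesis and inhibitors of NFκB itself. RelA, RelB and cRel, encoded by Rela, Relb and Rel, are the NFκB subunits with a transcription-activating domain, so Rela-/-Relb-/-Rel-/- MEFs lack all of them, whereas Rela-/-Nfkb2-/- MEFs keep RelB and cRel but lack p100 and p52, the products of Nfkb2.

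The arrays gave between 11637 and 12599 probes above background (detection p-value under 0.05), of 25697 listed. The log2 signals below were normalized between arrays, and a probe without signal lay near 5 on this scale, as did Ptprc, which encodes the leukocyte antigen CD45 (4.86 to 5.10). Rela gave 10.05 to 10.80 on the 8 arrays of both mutants, against 12.60 to 13.22 in WT, and Relb gave 5.54 to 6.21 in Rela-/-Relb-/-Rel-/- cells, against 9.16 to 11.12 in WT. Nfkb2 gave 7.23 to 8.83 in Rela-/-Nfkb2-/- cells, against 8.64 to 10.01 in WT, and Rel was above background on 0 of 12 arrays, WT included. The positions of the Rela, Nfkb2 and Rel probes with respect to the deletions are unknown, so Nfkb2 and Rel did not check the genotype labels. Rela was lower in both mutants than in WT but above background on all 12 arrays, and it cannot tell the mutants apart. Of 13 fibroblast markers on the array, 10 were above background on all 12 arrays, among them Col1a1 and Vim, while Thy1 was above background on 4. Of 8 leukocyte markers on the array, Ptprc, Adgre1, Itgam and Tyrobp were above background on none of the arrays. The others were not absent, with Cd14 above background on 12 arrays (8.7 to 10.04), Lyz1 on 7, Cd3e on 2 and Lyz2 on 1. The epithelial list varied between lines, its summed level ranging from 7.69 to 12.18 on TNF arrays and from 7.68 to 12.01 on untreated arrays.

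In limma with Benjamini-Hochberg adjustment, the mean TNF effect passed an adjusted p of 0.05 for 1846 features (18.4% of those tested), of which 772 (7.7%) were higher and 1074 (10.7%) lower with TNF. Of these, 595 were higher in all 3 lines (5.93% of the tested features) and 861 were lower in all 3 (8.58%). The call asked for the test of the mean and for a common sign, not for a test in each line. Of the 595 features that were higher, 307 (51.6%) had both TNF arrays above both untreated arrays in every line, and of the 861 that were lower, 474 (55.1%) had both below. Over all tested features, whether or not the mean passed, such separation was seen for 381 (3.8%) above and 587 (5.85%) below. The smallest of the 3 changes was at least 1 on the log2 scale for 15 of the higher and 6 of the lower features, and at least 0.5 for 79 and 101. In 507 of the higher and 700 of the lower features, a group of each line had both arrays above background. In the others, 1 line or more had no group with both arrays above background, though single arrays could be.

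The lines did not weigh equally in these counts. Among the higher features the median log2 change was 0.35 in WT MEFs, 0.86 in Rela-/-Nfkb2-/- MEFs and 0.47 in Rela-/-Relb-/-Rel-/- MEFs, and among the lower ones it was -0.35, -0.93 and -0.43 in the same order. Where TNF and untreated cells of every line were above background on at least 1 array, the largest of the 3 changes was that of Rela-/-Nfkb2-/- MEFs in 349 of 489 higher and in 500 of 643 lower features, and over all such features in 4515 of 8030. Without the 4 arrays of Rela-/-Nfkb2-/- MEFs, 91 features were higher and 62 lower in both remaining lines. The mean effect was past the threshold for 310 features higher and 406 lower in a model of genotype plus treatment without their interaction, in which differences between the lines count as error. Scaling the arrays to a common median instead of common quantiles moved the median mean effect of all features to -0.16, and 156 features were then higher and 885 lower in all 3 lines. With a replicate block nested in genotype, 992 were higher and 1371 lower, and all 1456 of the original features were among them. Leaving out 1 array moved the count of higher features by over 1.5 times for 5 arrays. Of the WT arrays these were untreated replicate 1 (373 features were higher in its absence), untreated replicate 2 (376) and TNF replicate 1 (387), and of the mutants TNF replicate 1 of Rela-/-Nfkb2-/- (373) and untreated replicate 2 of Rela-/-Relb-/-Rel-/- MEFs (352). The count of lower features moved as far in the absence of the same 3 WT arrays (548, 563 and 531), of TNF replicate 2 of Rela-/-Nfkb2-/- (555) and of untreated replicate 1 of Rela-/-Relb-/-Rel-/- MEFs (561).

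Tested line by line, 0.857% of the features were higher and 0.339% lower in WT MEFs, 8.03% and 11.6% in Rela-/-Nfkb2-/- MEFs, and 1.39% and 0.798% in Rela-/-Relb-/-Rel-/- MEFs. A common sign without any test was seen for 18.1% higher and 22.8% lower. In the separate tests, 6 genes were past the threshold in all 3 lines and higher (0.0598% of the tested features), and 1 was lower (0.00997%). The 6 were Serpinb2, Itga2, Ptgs2, Rgs16, Ccl2 and Gch1, and the 1 was Scx. Serpinb2 encodes PAI-2, an inhibitor of the urokinase plasminogen activator. It gave log2 signals of 9.69 and 9.44 with TNF against 6.93 and 6.60 untreated in WT, 8.37 and 8.38 against 5.20 and 4.96 in Rela-/-Nfkb2-/-, and 8.23 and 7.23 against 4.86 and 4.91 in Rela-/-Relb-/-Rel-/- MEFs. The TNF arrays lay above the untreated arrays in each line without overlap, and neither untreated group of the mutants was above background. The mean change was 2.98 ± 0.17 on the log2 scale (SE, 2 arrays a group; limma adjusted p = 4.17e-05), with 2.80 in WT MEFs, 3.30 in Rela-/-Nfkb2-/- MEFs and 2.84 in Rela-/-Relb-/-Rel-/- MEFs. The F test of a difference between the 3 changes gave an adjusted p of 0.703. Where an untreated group was not above background, a lower bound of the fold is given instead, computed against the lowest signal of a probe above background on each array or the probe's own signal, whichever was higher. For Serpinb2 it was at least 6.06-fold in Rela-/-Nfkb2-/- and at least 3.52-fold in Rela-/-Relb-/-Rel-/- MEFs.

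Ptgs2 encodes cyclooxygenase-2, the inducible enzyme of prostaglandin synthesis. It gave 8.04 and 7.94 with TNF against 6.45 and 5.63 untreated in WT, 8.43 and 8.76 against 5.73 and 6.22 in Rela-/-Nfkb2-/-, and 8.06 and 8.60 against 5.32 and 5.32 in Rela-/-Relb-/-Rel-/- MEFs. All 6 TNF arrays lay above all 6 untreated arrays, and the TNF levels of the 3 lines were close to each other. The mean change was 2.52 ± 0.17 (limma adjusted p = 7.64e-05), and in Rela-/-Relb-/-Rel-/- MEFs, where untreated cells were not above background, the rise was at least 5.33-fold. Itga2, the integrin α subunit of a collagen receptor, was above background on all 6 TNF arrays and on none of the 6 untreated arrays. Its signals were 7.14 and 8.82 against 5.04 and 5.26 in WT, 9.40 and 8.26 against 5.08 and 5.11 in Rela-/-Nfkb2-/-, and 7.50 and 8.07 against 5.35 and 5.07 in Rela-/-Relb-/-Rel-/- MEFs, TNF first in each pair of groups. The rise was at least 4.32-fold, 8.29-fold and 3.66-fold in the same order of lines, and the mean change was 3.05 ± 0.30 (limma adjusted p = 0.00042).

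Ccl2, which encodes the monocyte chemokine MCP-1, rose in every line from very different levels. It gave 13.05 and 13.18 with TNF against 11.00 and 10.91 untreated in WT, 12.53 and 12.73 against 9.23 and 9.67 in Rela-/-Nfkb2-/-, and 7.30 and 7.75 against 5.72 and 6.31 in Rela-/-Relb-/-Rel-/- MEFs. The groups did not overlap within any line, while the TNF arrays of Rela-/-Relb-/-Rel-/- MEFs lay below the untreated arrays of the other lines. The mean change was 2.28 ± 0.14 (limma adjusted p = 5.03e-05), and the F test between the lines gave an adjusted p of 0.055. Rgs16, a GTPase-activating protein for G protein α subunits, was likewise lowest in Rela-/-Relb-/-Rel-/- MEFs, with 11.88 and 12.27 against 10.25 and 10.30 in WT, 13.25 and 12.93 against 10.41 and 10.28 in Rela-/-Nfkb2-/-, and 7.27 and 6.70 against 5.44 and 5.39 in Rela-/-Relb-/-Rel-/- MEFs. It rose by a mean of 2.04 ± 0.13 (limma adjusted p = 5.03e-05), without overlap in any line, and by at least 2.11-fold in Rela-/-Relb-/-Rel-/- MEFs, whose untreated arrays were not above background.

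Gch1 encodes GTP cyclohydrolase, the first enzyme of tetrahydrobiopterin synthesis, and was measured on all 12 arrays. It gave 11.20 and 11.46 with TNF against 9.35 and 9.11 untreated in WT, 10.84 and 10.78 against 8.20 and 7.85 in Rela-/-Nfkb2-/-, and 11.52 and 11.57 against 10.18 and 10.37 in Rela-/-Relb-/-Rel-/- MEFs. It rose in each line, by 2.10, 2.79 and 1.27 in that order, and these changes differed in size (F test adjusted p = 0.0236). Scx, the tendon and ligament transcription factor scleraxis, gave 7.12 and 6.85 with TNF against 7.99 and 7.96 untreated in WT, 6.52 and 6.54 against 9.53 and 9.65 in Rela-/-Nfkb2-/-, and 9.62 and 9.43 against 10.82 and 10.53 in Rela-/-Relb-/-Rel-/- MEFs. The TNF arrays were below the untreated ones in each line, and the fall was largest in Rela-/-Nfkb2-/- MEFs (-3.06, with -0.99 in WT and -1.15 in Rela-/-Relb-/-Rel-/-; F test adjusted p = 0.00209). The mean effects of these 7 genes passed the threshold under every limma alternative run, with adjusted p-values between 1.67e-05 and 0.0167. In the methods' t-test, which pools the lines and so counts their differences in level as error, Ptgs2 and Itga2 passed after adjustment (0.00869 and 0.0158) and the other 5 did not (0.0785 to 0.769). With the replicate block within genotype the separate calls numbered 19 higher and 12 lower, all 7 included and Tnfaip3, Ch25h, Pdgfb and Pvr among those added. They were lost more readily than the mean effects. When each of the 12 arrays was left out in turn, Serpinb2 kept them in 12 of 12 fits, Gch1 in 10, Ptgs2 in 9, Ccl2 in 8, Rgs16 in 7, Scx in 5 and Itga2 in 1, that without WT TNF replicate 1.

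**Figure D1:**
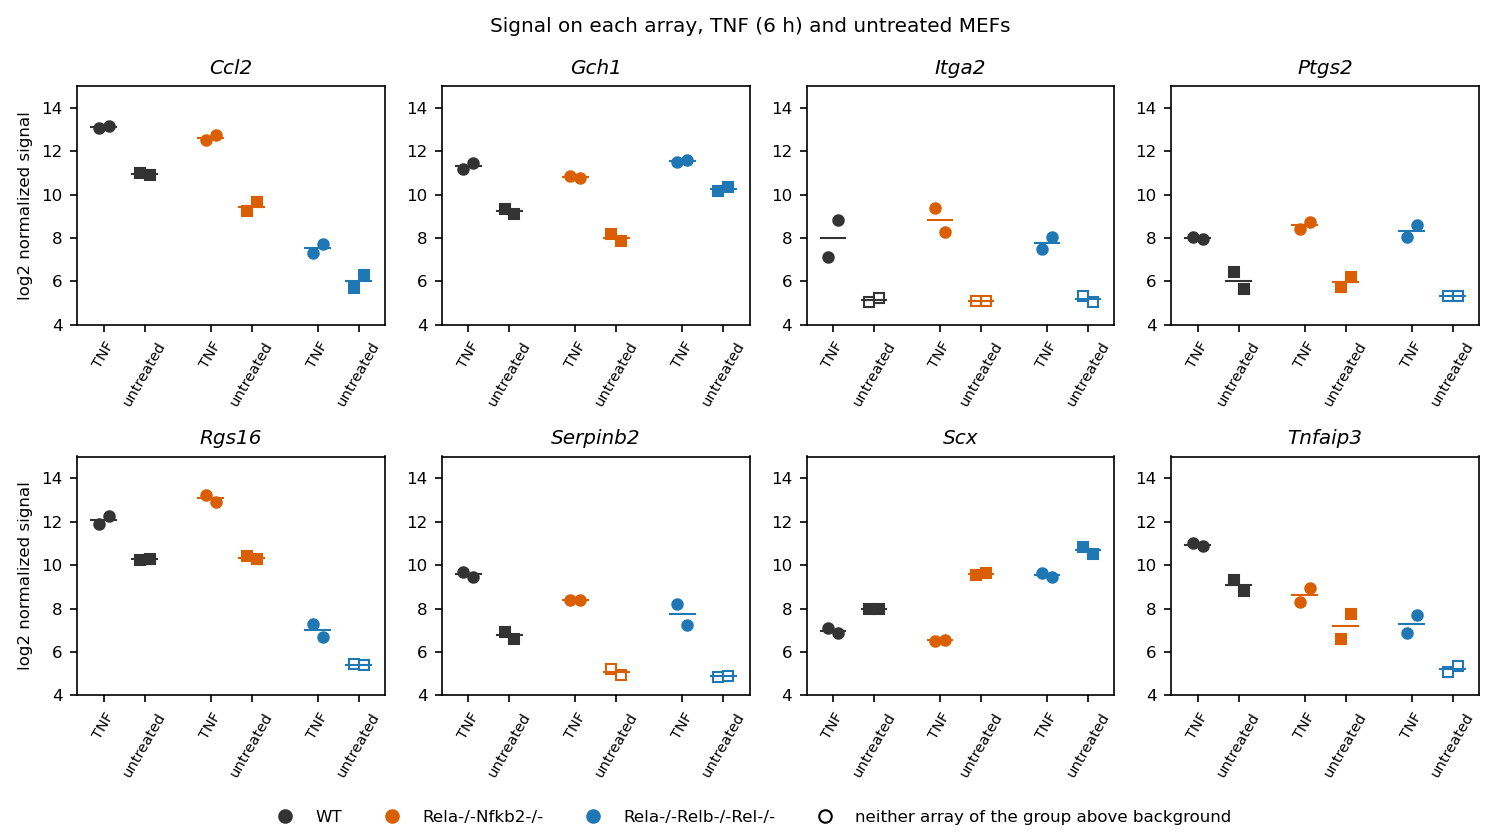
Normalized log2 signal of 8 genes on each of the 12 arrays (points; the line is the mean of 2 arrays), with TNF (circles) left of untreated (squares) for WT (black), Rela-/-Nfkb2-/- (orange) and Rela-/-Relb-/-Rel-/- MEFs (blue). Open symbols mark groups in which neither array was above background; TNF and untreated arrays did not overlap within a line for any of the 8 genes.

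Ranked by the smallest of the 3 changes among named genes whose arrays did not overlap in any line, 20 rises and 10 falls were taken for description. All 6 genes called higher in each line were among the rises and Scx was among the falls. Tnfaip3, the ubiquitin-editing inhibitor A20 of NFκB signaling, gave 11.01 and 10.86 with TNF against 9.33 and 8.79 untreated in WT, 8.29 and 8.94 against 6.62 and 7.76 in Rela-/-Nfkb2-/-, and 6.87 and 7.69 against 5.08 and 5.36 in Rela-/-Relb-/-Rel-/- MEFs. TNF arrays were the higher ones in each line, although both mutants started lower than WT. The mean change was 1.79 ± 0.24 (limma adjusted p = 0.00174), with at least a 2.59-fold rise in Rela-/-Relb-/-Rel-/- MEFs, in which the untreated cells were not above background.

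Ch25h encodes cholesterol 25-hydroxylase, which makes the oxysterol 25-hydroxycholesterol. Its signals were 9.96 and 9.69 against 6.51 and 5.46 in WT, 10.11 and 10.29 against 7.91 and 7.65 in Rela-/-Nfkb2-/-, and 9.00 and 9.34 against 7.23 and 8.04 in Rela-/-Relb-/-Rel-/- MEFs, again with TNF first. All 6 TNF arrays lay above all 6 untreated arrays (mean change 2.60 ± 0.21, limma adjusted p = 0.000152). Pdgfb, which encodes the B chain of platelet-derived growth factor, likewise gave TNF signals of 10.80 and 10.75 in WT, 11.39 and 10.98 in Rela-/-Nfkb2-/- and 9.58 and 9.50 in Rela-/-Relb-/-Rel-/- MEFs, against 7.86 to 8.75 on the 6 untreated arrays. Its mean change was 2.27 ± 0.16 (limma adjusted p = 9.68e-05). Slc7a11, the cystine transporter subunit that supplies glutathione synthesis, changed by a mean of 2.58 ± 0.31 (limma adjusted p = 0.00105), and in Rela-/-Relb-/-Rel-/- MEFs it was above background on 1 of 2 TNF arrays and on neither untreated array.

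Of the remaining rises, Pvr, the poliovirus receptor and a cell adhesion protein, changed by 1.25, 1.47 and 1.82 on the log2 scale in WT MEFs, Rela-/-Nfkb2-/- MEFs and Rela-/-Relb-/-Rel-/- MEFs, and Thbs1, the matrix protein thrombospondin-1, by 1.20, 1.47 and 1.43. Egr2, an immediate early zinc finger factor, changed by 1.03, 1.57 and 3.03 in the same order, the widest spread in favor of the triple mutant among the 20 (F test adjusted p = 0.0444). Noct, the deadenylase-related protein nocturnin, changed by 0.97, 1.75 and 2.25, and Mfsd2a, a lysophospholipid transporter, by 0.97, 1.63 and 1.61. Stk40, a pseudokinase, changed by 0.92, 1.34 and 0.95, and Sema4b, a membrane semaphorin, had the most even changes of the 20, with 0.96, 0.89 and 0.86. Prl2c3 and Prl2c4 are near-identical members of the proliferin family whose probes may share transcripts, and they changed by means of 1.36 ± 0.27 and 1.39 ± 0.26 (limma adjusted p = 0.00981 and 0.00791). In Rela-/-Relb-/-Rel-/- MEFs both were above background on 1 of 2 TNF arrays and on no untreated array. Rnu6, which the annotation gives for a U6 small nuclear RNA, a multicopy gene, changed by 2.22, 1.85 and 0.88.

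Among the falls, Dbp, the circadian PAR-bZIP factor, gave 9.68 and 10.32 with TNF against 11.12 and 11.29 untreated in WT, 8.08 and 8.19 against 11.07 and 10.74 in Rela-/-Nfkb2-/-, and 8.55 and 7.79 against 9.55 and 9.70 in Rela-/-Relb-/-Rel-/- MEFs. It was lower on the TNF arrays of each line (mean change -1.81 ± 0.16, limma adjusted p = 0.000287). Bmp4, a bone morphogenetic protein, gave 10.27 and 10.56 against 11.54 and 11.65 in WT, 7.82 and 7.41 against 10.46 and 10.90 in Rela-/-Nfkb2-/-, and 11.65 and 11.63 against 12.51 and 12.49 in Rela-/-Relb-/-Rel-/- MEFs. It fell in size by most in Rela-/-Nfkb2-/- MEFs (mean change -1.70 ± 0.12, limma adjusted p = 7.64e-05; F test adjusted p = 0.00529). Slc1a3, the glutamate transporter GLAST, changed by a mean of -2.03 ± 0.20 (limma adjusted p = 0.00037), and its TNF level in WT was not above background, so that the fall there was at least 2.94-fold. Ppp1r3c, a glycogen-targeting subunit of protein phosphatase 1, changed by -1.27, -3.78 and -1.36 in WT MEFs, Rela-/-Nfkb2-/- MEFs and Rela-/-Relb-/-Rel-/- MEFs (F test adjusted p = 0.0131). Ephb6, a kinase-inactive Eph receptor, changed by -1.14 in WT and -1.02 in Rela-/-Relb-/-Rel-/- MEFs, and fell at least 5.66-fold in Rela-/-Nfkb2-/- MEFs, where it was not above background with TNF (F test adjusted p = 0.0215). Ypel1, of the Yippee family, was above background on all 6 untreated arrays and on none of the 6 TNF arrays, with falls of at least 2.13-fold, 2.82-fold and 1.61-fold. Selenbp1, a selenium-binding protein, Nrep, known for a role in regeneration of neurons, and Acot1, a cytosolic acyl-CoA thioesterase, changed by means of -1.83 ± 0.18, -1.28 ± 0.17 and -1.21 ± 0.15. With TNF, Selenbp1 was not above background in Rela-/-Nfkb2-/- MEFs, a fall of at least 2.79-fold, nor Nrep in WT MEFs, a fall of at least 1.18-fold.

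**Figure D2:**
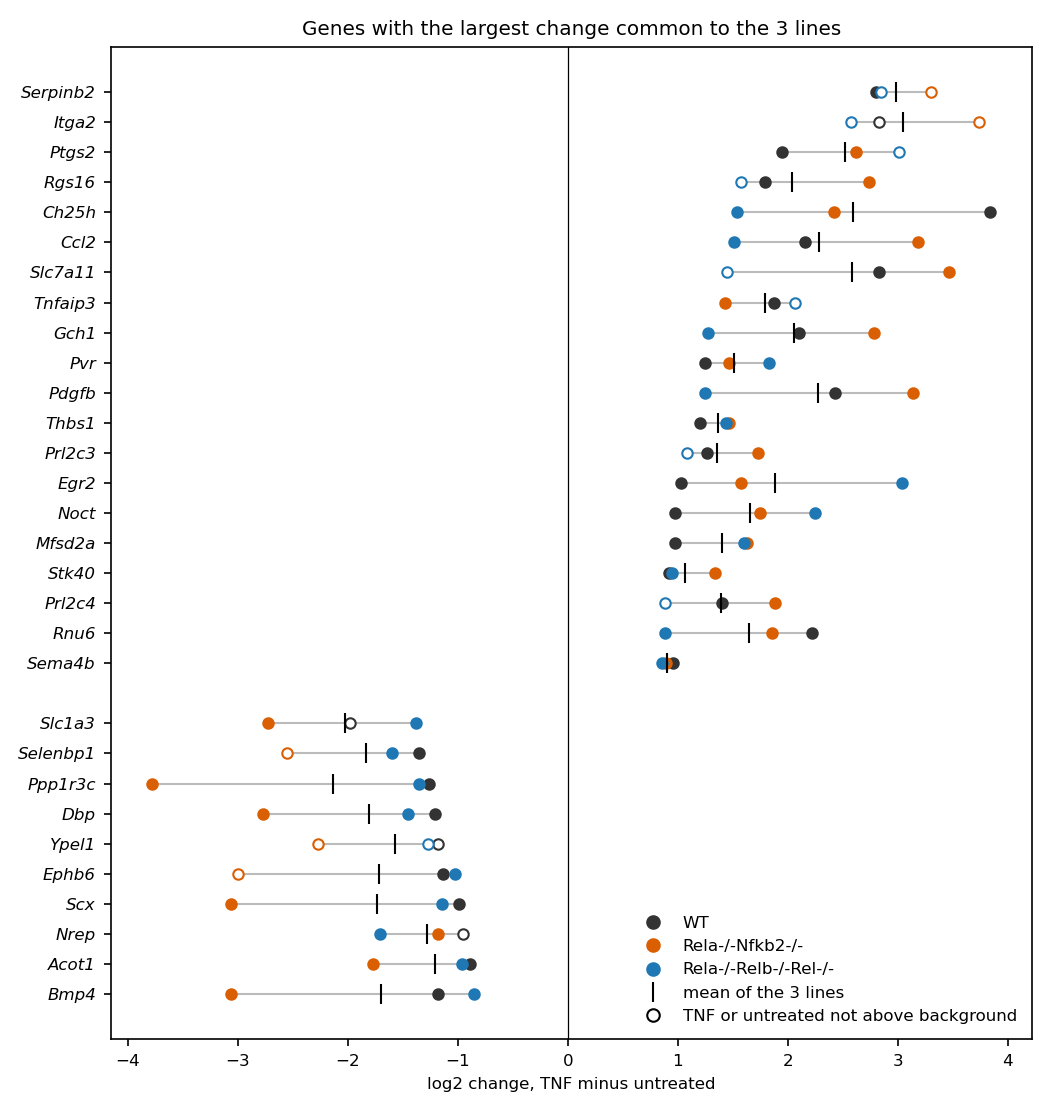
Change in log2 signal (x axis, TNF minus untreated) of the 20 rises and 10 falls with the largest change common to all lines; each dot is 1 line (difference of 2-array means) and the tick is the mean of the 3 lines, with open dots where TNF-treated or untreated cells were not above background. In the 5 falls measured on both sides in every line (Ppp1r3c, Dbp, Scx, Acot1 and Bmp4), Rela-/-Nfkb2-/- MEFs (orange) had the largest. They had it in 6 of the 12 rises so measured, and in 4515 of 8030 such features among all tested.

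Of the 20 rises, 14 had a promoter in the table used, and 7 of the 14 held a motif of a factor downstream of TNF or cAMP. Besides the 4 shown, chosen as the higher-ranked ones, these were Egr2 (overlapping NFκB matches), Prl2c3 (AP-1) and Sema4b (NFκB), whereas Itga2, Ptgs2, Rgs16, Slc7a11, Noct, Mfsd2a and Stk40 had no match. Of the 8 falls whose promoters were searched, 1 held a match, the CArG box of Selenbp1. The share of all promoters with a match to any of the motifs searched was not computed. These counts of rises and falls therefore have no background beside them and cannot be read as high or low. Sequences are from RefSeq (GRCm38.p6), 250 bases before and 50 after the first listed transcription start, 5′ to 3′ on the strand of the gene. Both strands were searched for the NFκB consensus, the AP-1 site TGANTCA, the cAMP response element TGACGTCA, the CArG box of serum response factor and the antioxidant response element TGACNNNGC, with overlaps of different motifs counted for each, and matches are in capitals.
Serpinb2: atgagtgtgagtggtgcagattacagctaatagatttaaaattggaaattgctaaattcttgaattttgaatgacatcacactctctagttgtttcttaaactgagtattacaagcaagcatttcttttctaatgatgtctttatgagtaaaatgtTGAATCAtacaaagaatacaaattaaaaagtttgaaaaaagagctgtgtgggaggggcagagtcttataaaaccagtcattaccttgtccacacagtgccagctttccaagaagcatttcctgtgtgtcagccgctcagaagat
Ch25h: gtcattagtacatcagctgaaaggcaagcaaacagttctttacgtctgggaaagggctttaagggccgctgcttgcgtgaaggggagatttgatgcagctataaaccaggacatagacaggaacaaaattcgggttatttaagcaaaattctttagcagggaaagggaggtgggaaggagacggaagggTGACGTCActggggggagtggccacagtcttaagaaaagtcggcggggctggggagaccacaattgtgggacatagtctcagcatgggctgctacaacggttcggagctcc
Gch1: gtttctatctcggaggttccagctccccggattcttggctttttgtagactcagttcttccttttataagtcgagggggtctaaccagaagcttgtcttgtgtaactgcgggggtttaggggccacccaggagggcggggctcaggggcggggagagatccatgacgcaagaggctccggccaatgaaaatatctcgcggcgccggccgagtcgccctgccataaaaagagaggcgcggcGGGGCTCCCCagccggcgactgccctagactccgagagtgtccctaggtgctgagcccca
Tnfaip3: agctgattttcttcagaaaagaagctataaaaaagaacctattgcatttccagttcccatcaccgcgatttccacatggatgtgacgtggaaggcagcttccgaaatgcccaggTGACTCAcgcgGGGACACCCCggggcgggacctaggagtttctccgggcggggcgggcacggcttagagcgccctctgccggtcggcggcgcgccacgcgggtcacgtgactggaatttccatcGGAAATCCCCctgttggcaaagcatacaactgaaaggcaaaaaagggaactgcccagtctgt
Serpinb2 (chr1:107511173-107511472, plus strand) held an AP-1 site, Ch25h (chr19:34475099-34475398, minus strand) a cAMP response element, Gch1 (chr14:47189364-47189663, minus strand) an NFκB consensus that ends at the last base before the start, and Tnfaip3 (chr10:19015361-19015660, minus strand) an AP-1 site and 2 NFκB consensus matches. Of the 9251 named genes, 7524 had a promoter in the table. Among 447 higher genes the share with a match was 12.5% for the NFκB consensus, 7.38% for the AP-1 site, 6.71% for the cAMP response element, 1.79% for the CArG box and 12.8% for the antioxidant response element. The shares over all 7524 promoters were 10.1%, 5.41%, 3.18%, 1.38% and 14.4%, and those of 650 lower genes were 8.92%, 4.00%, 2.46%, 0.923% and 13.1%. A match is a description of the letters and no evidence of binding.

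Gene lists were then described by how many tested members moved in 1 direction in all 3 lines, beside the 5.93% higher and 8.58% lower among all features, whose median mean effect was -0.0087. List counts under median scaling belong beside 156 higher and 885 lower of all 10031 features under that setting. The lists were chosen with earlier results of these data known, so their shares are a description and no independent support. Members count by the sign of the fitted change, and where some higher members lacked a group with both arrays above background in a line, the number with signal in each line is given too. Other lists were tested and are not described further. Of these, death receptor genes had 3 of 14 higher (2 with signal in each line) and TNF receptors 2 of 14. SRF and YAP targets had 2 of 13 and glycolysis genes 2 of 15. Sterol synthesis had 1 of 14, ER stress 1 of 18 and pro-survival factors 1 of 11. The mRNA decay list had 1 of 5 and NFκB subunits 1 of 8 (0 with signal in each line). Adipogenic genes had 0 of 6 and pattern recognition receptors 0 of 11. The immediate early list (Egr and Nr4a factors and genes like them) had 9 of 17 members higher and 0 lower, with a median mean effect of 0.44. The 9 included Ier2 and Btg2, which had a group with both arrays above background in 1 line only, and 6 were higher under median scaling. Myc gave 7.70 and 7.84 with TNF against 7.26 and 7.63 untreated in WT, 8.45 and 8.35 against 6.73 and 6.68 in Rela-/-Nfkb2-/-, and 7.27 and 6.85 against 5.62 and 5.42 in Rela-/-Relb-/-Rel-/- MEFs. The groups did not overlap in any line, but were close in WT, and the changes of 0.32, 1.69 and 1.54 differed between lines (F test adjusted p = 0.0344), the last of them a rise of at least 2.21-fold over untreated arrays that were not above background. Plk3, a stress-responsive polo-like kinase, changed by 0.63, 1.19 and 1.57. Arc, an immediate early gene of the cytoskeleton in neurons, passed the mean test without a common sign (-0.56 in WT, -0.15 in Rela-/-Nfkb2-/- and at least 11.7-fold higher in Rela-/-Relb-/-Rel-/- MEFs; F test adjusted p = 0.00206).

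Of 10 AP-1 and ATF factors tested, 2 rose in all lines and 0 fell (1 higher under median scaling), and the 2 were Fosl1 and Maff, which encode Fra-1 and a small Maf protein. Fosl1 gave 10.90 and 11.36 with TNF against 10.77 and 10.89 untreated in WT, 10.58 and 10.55 against 7.99 and 8.94 in Rela-/-Nfkb2-/-, and 8.64 and 8.98 against 5.96 and 5.63 in Rela-/-Relb-/-Rel-/- MEFs. The WT arrays were high with and without TNF and only just separated, while both mutants rose from lower levels (changes 0.30, 2.10 and 3.01; F test adjusted p = 0.0178). Maff changed by a mean of 0.69 ± 0.14 (limma adjusted p = 0.0101), which fell short under median scaling (adjusted p = 0.125). Atf3, a stress-induced ATF factor, changed by 0.65, -0.25 and 2.73, and Fosb by -0.29, 0.28 and 1.79, so neither had a common sign. Atf3 in untreated WT and Fosb in untreated Rela-/-Relb-/-Rel-/- MEFs were not above background, and those rises were of at least 1.49-fold and 2.61-fold. Fos itself did not pass the mean test (0.05 ± 0.25, limma adjusted p = 0.917). It gave 6.34 and 7.28 with TNF against 8.74 and 8.54 untreated in Rela-/-Nfkb2-/- MEFs and 10.92 and 11.69 against 8.45 and 9.40 in Rela-/-Relb-/-Rel-/- MEFs, and 5.61 and 6.02 against 6.58 and 5.84 in WT, where neither TNF array was above background (F test adjusted p = 0.0133).

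Feedback inhibitors of MAP kinase and receptor tyrosine kinase signaling had 7 of 14 members higher and 0 lower, and 4 higher under median scaling (median mean effect 0.84, with 0.04 in WT MEFs, 0.82 in Rela-/-Nfkb2-/- MEFs and 1.06 in Rela-/-Relb-/-Rel-/- MEFs). Errfi1, an inhibitor of the EGF receptor, stood at 13.86 and 14.12 with TNF against 13.98 and 13.93 untreated in WT, so that its groups overlapped there, at 14.25 and 14.25 against 12.25 and 12.15 in Rela-/-Nfkb2-/-, and at 11.84 and 11.47 against 10.26 and 10.31 in Rela-/-Relb-/-Rel-/- MEFs (mean change 1.15 ± 0.10, limma adjusted p = 0.000192; F test adjusted p = 0.00401). Phlda1 changed by 0.37, 1.37 and 1.25 without overlap in any line. The phosphatases Dusp4 and Dusp10 passed the mean test but changed by -0.31 and -0.10 in WT, against 2.04 and 1.66 in Rela-/-Nfkb2-/- and 1.89 and 1.72 in Rela-/-Relb-/-Rel-/- MEFs.

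Of 12 NFκB inhibitors and feedback genes, 4 were higher in all lines, 3 with signal in each line, and 0 lower (median mean effect 0.22), 2 under median scaling. Besides Tnfaip3, Nfkbie, which encodes IκBε, gave 10.74 and 10.98 with TNF against 7.95 and 8.02 untreated in WT, 9.56 and 9.13 against 7.71 and 7.41 in Rela-/-Nfkb2-/-, and 6.07 and 5.81 against 5.43 and 5.62 in Rela-/-Relb-/-Rel-/- MEFs. The arrays did not overlap in any line, but the last group was above background on 1 TNF array and no untreated array, and the changes of 2.88, 1.78 and 0.42 differed (F test adjusted p = 0.00401). Nfkbib, which encodes IκBβ, changed by 0.83, 1.13 and 0.23 (limma adjusted p = 0.00498, and 0.0503 under median scaling). Nfkbia, the gene of IκBα, was no common gene. It gave 13.33 and 13.40 against 11.58 and 11.54 in WT and 12.24 and 11.88 against 9.90 and 9.93 in Rela-/-Nfkb2-/- MEFs, but 7.39 and 7.49 with TNF against 8.22 and 7.80 untreated in Rela-/-Relb-/-Rel-/- MEFs (F test adjusted p = 0.00123). For Tnfaip3 the same F test did not pass (adjusted p = 0.784). That does not show equal changes, as its untreated Rela-/-Relb-/-Rel-/- arrays were not above background. Among the subunit genes, Relb changed by 1.70 in WT and 1.26 in Rela-/-Nfkb2-/- MEFs, and by 0.31 near background in Rela-/-Relb-/-Rel-/- MEFs. Rela and Nfkb2 did not pass the mean test (adjusted p = 0.164 and 0.313), although Nfkb2 did with the replicate block (0.57 ± 0.11, adjusted p = 0.00818).

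Chemokines had 6 of 13 members higher, 3 of them with signal in each line, and 1 lower (median mean effect 1.13, with 1.78, 0.90 and 0.16 by line). Of the 4 members with the largest mean changes, those other than Ccl2 had changes in Rela-/-Relb-/-Rel-/- MEFs that were small or below background. Cx3cl1 and Ccl7, further down the list, had signal in each line and a common rise. In the order of lines used above, the rises were 0.64, 0.75 and 0.69 for Cx3cl1 and 1.78, 1.09 and 0.83 for Ccl7. The arrays of Cx3cl1 were separated in every line, and those of Ccl7 were not (limma adjusted p of the mean effect 0.00772 and 0.0468). Ccl3 and Cxcl10 passed the mean test without a common sign and lacked signal in at least 1 line. Ccl3 changed by 3.50, -0.005 and -0.12, and Cxcl10 by 1.78, 0.90 and -0.075. Ccl5, the T cell chemokine RANTES, gave 11.96 and 12.65 with TNF against 7.35 and 7.53 untreated in WT and 11.95 and 12.45 against 8.47 and 9.88 in Rela-/-Nfkb2-/- MEFs, but 5.28 and 5.82 against 5.03 and 4.94 in Rela-/-Relb-/-Rel-/- MEFs, none of them above background. Cxcl16, a membrane-bound chemokine, was not above background in Rela-/-Relb-/-Rel-/- MEFs either, and changed by 2.33 in WT and 3.05 in Rela-/-Nfkb2-/- MEFs. Cxcl2, the neutrophil chemokine MIP-2, was above background with TNF in WT MEFs only among the lines, with a change of 4.07 (F test adjusted p = 0.00191).

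Cytokines and colony-stimulating factors had 4 of 11 members higher, 3 with signal in each line, and 1 lower (median mean effect 0.27). Adhesion molecules and matrix proteases had 7 of 17 higher, 5 with signal in each line, and 1 lower (median 0.63). Csf2, the gene of GM-CSF, had the largest fitted mean change of any named cytokine (3.51 ± 0.17, limma adjusted p = 2.6e-05), with 4.59 in WT and a rise of at least 27.4-fold in Rela-/-Nfkb2-/- MEFs, whose untreated arrays were not above background. In Rela-/-Relb-/-Rel-/- MEFs it gave 5.03 and 5.34 with TNF against 4.92 and 4.84 untreated, none above background. Lif, a cytokine of the interleukin-6 family, changed by 2.39, 4.26 and 0.53, and was above background on all 12 arrays. The mean change of Csf1, which encodes M-CSF, was 0.84 ± 0.14 (limma adjusted p = 0.00553). Il1rn, the interleukin-1 receptor antagonist, was one of the 5 largest mean changes without a common sign, with -1.33 in WT, a fall of at least 8.75-fold in Rela-/-Nfkb2-/- and a level in Rela-/-Relb-/-Rel-/- MEFs that was above background on 1 TNF array and no untreated array.

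The stromelysins Mmp3 and Mmp10, proteases of the extracellular matrix, changed by 5.09 and 5.19 in WT and by 1.70 and 3.91 in Rela-/-Nfkb2-/- MEFs, and by 0.08 and 0.58 in Rela-/-Relb-/-Rel-/- MEFs (F test adjusted p = 0.0021 for each), in which Mmp10 was above background on 1 TNF array and no untreated array. Mmp9, a gelatinase, changed by 1.84, 3.15 and 0.47, and the arrays did not overlap in any line. Among the members with smaller mean changes, the adhesion molecule Vcam1 rose more evenly, with 1.01, 0.77 and 0.64, also without overlap. Icam1 and Mmp13, ranked above it, passed the mean test without a common sign. Icam1 changed by 2.95, 0.87 and -0.41, and Mmp13 by 4.71, -1.54 and 0.71. Adamts5, an aggrecan-degrading protease, was the 1 member that fell, with 9.60 and 9.65 against 10.00 and 9.71 in WT, 7.19 and 6.68 against 11.45 and 10.92 in Rela-/-Nfkb2-/-, and 10.27 and 9.65 against 10.42 and 10.50 in Rela-/-Relb-/-Rel-/- MEFs. Nearly all of its mean change of -1.66 ± 0.15 came from Rela-/-Nfkb2-/- MEFs (-4.25; F test adjusted p = 0.00114).

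**Figure D3:**
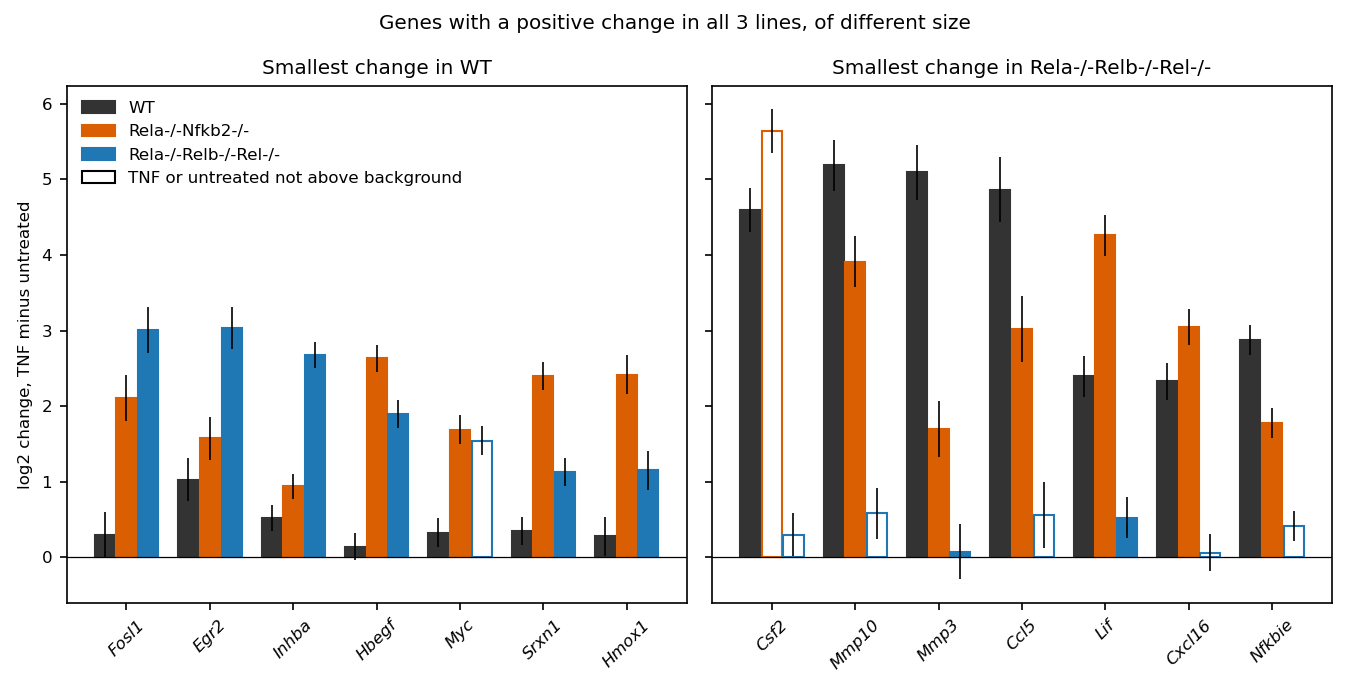
Change in log2 signal (TNF minus untreated, bars with the SE of the limma fit, 2 arrays a group) in WT (black), Rela-/-Nfkb2-/- (orange) and Rela-/-Relb-/-Rel-/- MEFs (blue) for 14 genes counted as higher in all 3 lines by the sign of the fitted change, with the smallest in WT on the left and in Rela-/-Relb-/-Rel-/- MEFs on the right. Open bars mark lines with TNF-treated or untreated cells not above background, whose changes are not measured. Fosl1 changed by 0.30 in WT and 3.01 in Rela-/-Relb-/-Rel-/- MEFs, and Csf2 by 4.59 and 0.30, the last with no array above background.

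Oxidative and metal stress genes had 6 of 12 members higher, 5 with signal in each line, and 0 lower (median mean effect 0.75), with the same counts under median scaling. Mt2, a metallothionein, gave 8.96 and 9.77 with TNF against 7.75 and 7.95 untreated in WT, 9.72 and 9.51 against 8.06 and 7.67 in Rela-/-Nfkb2-/-, and 6.85 and 6.97 against 6.45 and 5.95 in Rela-/-Relb-/-Rel-/- MEFs. It did not overlap in any line (mean change 1.32 ± 0.16, limma adjusted p = 0.00127). Srxn1 and Hmox1, which encode sulfiredoxin and heme oxygenase-1, rose mostly in the mutants, with changes of 0.35 and 0.28 in WT, 2.40 and 2.42 in Rela-/-Nfkb2-/- and 1.13 and 1.15 in Rela-/-Relb-/-Rel-/- MEFs (F test adjusted p = 0.00679 and 0.026).

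Growth factors of the EGF and angiogenic families had 5 of 14 members higher, 3 with signal in each line, and 0 lower (median mean effect 0.42), 3 under median scaling. Hbegf, a membrane-anchored EGF receptor ligand, changed by 0.14, 2.63 and 1.90 (F test adjusted p = 0.00206), with WT arrays that were high with TNF (12.01 and 11.98) and untreated (12.06 and 11.65) and overlapped. Inhba, the activin A subunit, gave 12.87 and 12.78 with TNF against 12.38 and 12.23 untreated in WT, 13.29 and 13.22 against 12.31 and 12.33 in Rela-/-Nfkb2-/-, and 12.87 and 12.73 against 10.33 and 9.92 in Rela-/-Relb-/-Rel-/- MEFs. It reached like levels with TNF in all lines, without overlap in any of them (mean change 1.38 ± 0.10, limma adjusted p = 8.3e-05; F test adjusted p = 0.00227). Angpt1, an angiopoietin, passed the mean test without a common sign, with 0.65 in WT and a fall of at least 4.50-fold in Rela-/-Nfkb2-/- MEFs.

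TGFβ and BMP pathway genes moved both ways, with 3 of 18 higher and 5 lower (median mean effect -0.07), and with 1 higher and 4 lower under median scaling. Beside Bmp4, Smad6, an inhibitory SMAD, gave 7.88 and 7.81 with TNF against 8.44 and 8.26 untreated in WT, 6.76 and 6.16 against 8.83 and 8.68 in Rela-/-Nfkb2-/-, and 9.77 and 9.95 against 11.28 and 11.13 in Rela-/-Relb-/-Rel-/- MEFs. It was lower in each line without overlap (mean change -1.38 ± 0.12, limma adjusted p = 0.000219). Id1, a BMP target that inhibits differentiation, changed by -0.91, -1.33 and -0.11.

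Ribosome biogenesis genes had 7 of 17 members higher and 0 lower (median mean effect 0.53), and 3 higher under median scaling. Rrp12 and Rrp9, which act in the processing of ribosomal RNA, changed by means of 1.23 ± 0.16 and 1.19 ± 0.11 (limma adjusted p = 0.00141 and 0.000355) and did not overlap in any line. Bop1, of the same process, changed by 0.98 ± 0.28 (limma adjusted p = 0.0418), a call lost when any of 9 of the 12 arrays was left out, all but Rela-/-Nfkb2-/- untreated replicate 2, Rela-/-Relb-/-Rel-/- untreated replicate 2 and Rela-/-Relb-/-Rel-/- TNF replicate 1 (adjusted p from 0.0504 to 0.11). The call of Bop1 was also lost under median scaling, without a detection filter and without interaction (limma adjusted p = 0.0653, 0.0882 and 0.0646). Ddx21, a nucleolar helicase, changed by 0.97 ± 0.51 (adjusted p = 0.226), and by 0.97 ± 0.15 with the replicate block (adjusted p = 0.00329). Cell cycle and DNA replication genes had 0 of 20 members higher and 7 lower (median mean effect -0.39), with 3 lower under median scaling. Top2a, which encodes topoisomerase II, gave 12.06 and 12.00 with TNF against 12.14 and 12.29 untreated in WT, 10.75 and 10.49 against 11.31 and 11.09 in Rela-/-Nfkb2-/-, and 10.73 and 10.28 against 11.43 and 11.12 in Rela-/-Relb-/-Rel-/- MEFs. Its falls were small but without overlap in any line (mean change -0.51 ± 0.11, limma adjusted p = 0.0167), and the call was lost without WT untreated replicate 2 (adjusted p = 0.0521) or Rela-/-Nfkb2-/- TNF replicate 2 (0.0504). Mcm6, a subunit of the replicative helicase, Foxm1, a cell cycle transcription factor, and Cdc20, an activator of the anaphase-promoting complex, changed by means of -0.62 ± 0.15, -0.56 ± 0.11 and -0.50 ± 0.13. The calls of Mcm6 and Cdc20 were lost under median scaling (adjusted p = 0.0551 and 0.073) and without 4 arrays for Mcm6 (WT untreated replicate 2, WT TNF replicate 2, Rela-/-Nfkb2-/- TNF replicate 2 and Rela-/-Relb-/-Rel-/- untreated replicate 2, adjusted p from 0.0576 to 0.0639) and 10 for Cdc20 (all but Rela-/-Nfkb2-/- untreated replicate 2 and Rela-/-Relb-/-Rel-/- TNF replicate 1, adjusted p from 0.0505 to 0.0857). Cdc20 also lost its call with the mean of a gene's probes (-0.36, limma adjusted p = 0.14) and without interaction (0.0517). In bulk RNA, fewer cells in cycle and less RNA per cell cannot be told apart.

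Prostaglandin and sphingosine enzymes had 2 of 7 members higher, Ptgs2 and Sphk1, and 0 lower (median mean effect 0.10). Sphk1, sphingosine kinase 1, changed by 0.03, 0.07 and 2.78, so that its rise lay in Rela-/-Relb-/-Rel-/- MEFs (F test adjusted p = 0.0119) and its mean call was lost under median scaling (adjusted p = 0.0745). Ptges, the prostaglandin E synthase next in the pathway to Ptgs2, changed by 1.72 in WT MEFs and was above background in no group of Rela-/-Relb-/-Rel-/- MEFs, and Ptgds, prostaglandin D synthase, changed by -0.16 ± 0.14 (adjusted p = 0.485). The p53 target list had 4 of 12 higher, 3 of them with signal in each line, and 1 lower (median mean effect 0.11). Under median scaling 2 were higher and 1 lower, with a median of -0.09. The stress sensor Sesn1 fell, with changes of -0.63, -1.38 and -1.44 (limma adjusted p = 0.000261). Mdm2 and Plk2, the p53 ubiquitin ligase and a polo-like kinase, changed by means of 0.55 ± 0.11 and 0.77 ± 0.21, while Btg2, an antiproliferative gene, was above background in TNF-treated Rela-/-Relb-/-Rel-/- MEFs only (at least 1.45-fold higher there), so that WT and Rela-/-Nfkb2-/- MEFs gave no measured change. The call of Mdm2 was lost under median scaling (adjusted p = 0.188), and that of Plk2 without the same 9 arrays as for Bop1, which were all but Rela-/-Nfkb2-/- untreated replicate 2, Rela-/-Relb-/-Rel-/- untreated replicate 2 and Rela-/-Relb-/-Rel-/- TNF replicate 1 (adjusted p from 0.0511 to 0.0941).

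Of 18 interferon-stimulated genes 0 were higher and 0 lower in all lines (median mean effect -0.0019, with 0.50 in WT MEFs, -0.50 in Rela-/-Nfkb2-/- MEFs and -0.41 in Rela-/-Relb-/-Rel-/- MEFs), and 1 was lower under median scaling. Gbp2, an interferon-induced GTPase, gave 13.55 and 13.86 with TNF against 10.83 and 10.75 untreated in WT, 11.01 and 10.12 against 11.11 and 10.62 in Rela-/-Nfkb2-/-, and 10.28 and 9.84 against 11.34 and 11.27 in Rela-/-Relb-/-Rel-/- MEFs. It was higher in WT and lower in Rela-/-Relb-/-Rel-/- MEFs, and the lines differed (F test adjusted p = 0.00191). Gbp3, of the same family, changed by 3.57, -0.28 and -1.35, whereas the antiviral genes Ifit2 and Ifit3 changed by means of -0.41 ± 0.19 and -0.41 ± 0.26 and did not pass the mean test. With the replicate block, Gbp3 (adjusted p = 0.0115), Gbp2 (0.0154) and Ifit2 (0.0276) did.

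Collagens and structural matrix genes had 0 of 17 higher and 0 lower (median mean effect -0.05). Lum and Dcn, small proteoglycans, and the fibrillar collagen chains Col3a1 and Col5a2 did not pass the mean test (adjusted p from 0.187 to 0.462). With the replicate block Lum, Col3a1 and Col5a2 did, at adjusted p-values of 0.0373, 0.00991 and 0.0415.

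**Figure D4:**
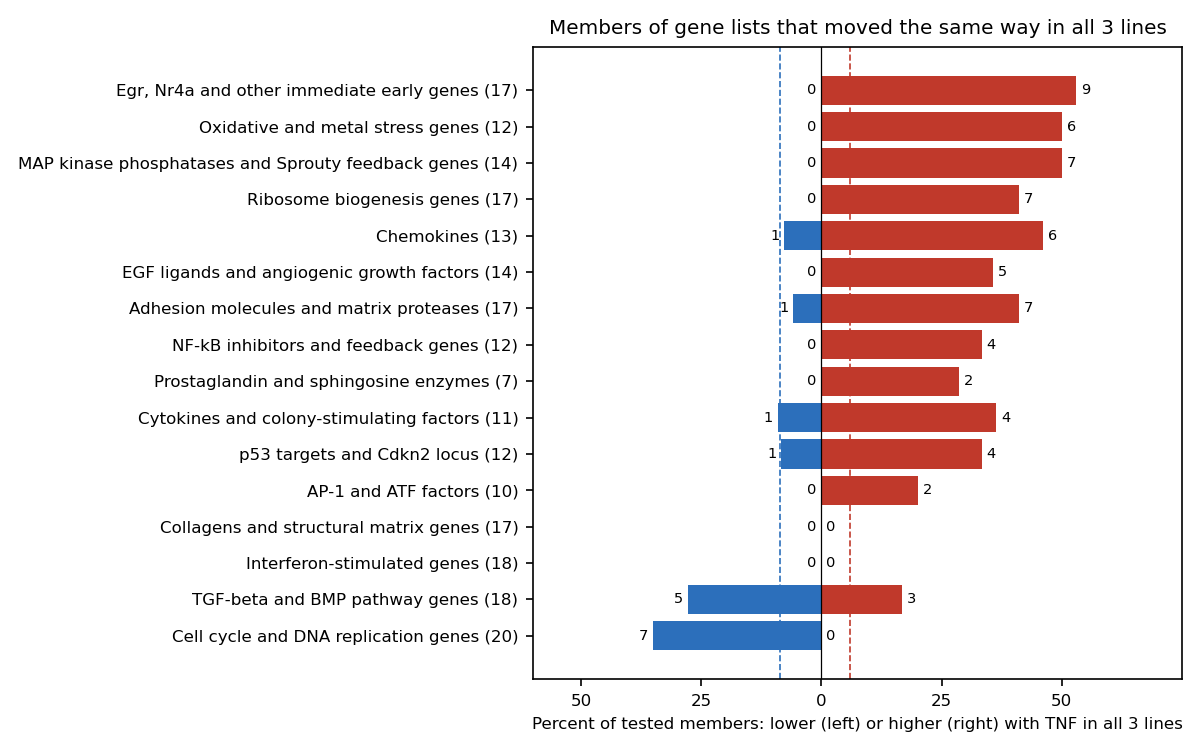
Percent of the tested members of each gene list described (number tested in brackets) that were higher (right, red) or lower (left, blue) with TNF in all 3 lines, with the count at the end of each bar. The lists were chosen with earlier results of these data known, and tested lists that are not described are left out. Dashed lines mark the shares among all 10031 features, 5.93% higher and 8.58% lower; the immediate early list had 9 of 17 members higher by sign and the cell cycle list 7 of 20 lower.

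The mean test also picked 177 higher and 213 lower features without a common sign, of which 85 and 133 were past the F test of a difference between lines. Among the 595 and 861 features with a common sign, 62 (10.4%) and 118 (13.7%) were past that test, against 5.33% of all features. Both tests use the same estimate of the spread, so a feature with a low estimate passes both more readily. The shares therefore do not show that these features differ more between lines than others. The 180 together became 83 to 109 without any 1 of the 4 WT arrays, either TNF array of Rela-/-Nfkb2-/- or either untreated array of Rela-/-Relb-/-Rel-/- MEFs. The largest mean changes without a common sign, apart from Il1rn, were those of Nppb, Plin4, Traf1 and Hoxd10. Nppb, which encodes brain natriuretic peptide, gave 12.43 and 11.68 with TNF against 7.43 and 6.74 untreated in Rela-/-Relb-/-Rel-/- MEFs and 9.96 and 9.12 against 7.43 and 5.40 in Rela-/-Nfkb2-/- MEFs, and was not above background in WT. Traf1, an adaptor of TNF receptors, changed by 2.74 in WT and rose at least 3.60-fold in Rela-/-Nfkb2-/- MEFs, and was not above background in Rela-/-Relb-/-Rel-/- MEFs. The lipid droplet gene Plin4 changed by -1.23 in WT and fell at least 13.3-fold in Rela-/-Nfkb2-/- MEFs, and Hoxd10, a positional homeobox gene, was above background in Rela-/-Nfkb2-/- MEFs alone, where it changed by -5.05.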

How the data were processed

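RNA of 12 MEF samples (2 arrays in each of 6 groups) was measured on Illumina MouseRef-8 v2.0 arrays. Deposited for every probe were a non-normalized signal intensity and a detection p-value per array, exported from GenomeStudio (version not given in the sources used here), and the authors' background-subtracted, quantile-normalized intensity, used here as an alternative. Normalization was done by a service company. The depth of an array has no count; the number of arrays limits the precision.

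In R 4.3.3 with limma 3.58.1, neqc took the background from the detection p-values, used an offset of 16, normalized by quantiles and gave log2 values. Quantile normalization takes out a shift of most genes in 1 direction, and ratios of dim probes shrink toward 0 with the offset. Of 25697 probes, 13387 had a detection p-value under 0.05 on both arrays of a group, and the brightest was taken for the 2443 genes with several, leaving 10031 features. The probe annotation gave 1 symbol for 23978 probes and none for 1719.

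A mean for each of the 6 groups was fitted (6 residual and 2.92 prior degrees of freedom), without a replicate block. The mean of the 3 TNF-minus-untreated differences was tested with eBayes and Benjamini-Hochberg adjustment at 0.05, and a moderated F test took the 2 interaction contrasts. The fit was tested on simulated data. Samples of the same number deviated together within a genotype (correlations of 0.31, 0.67 and 0.70), a pairing read from the data, and also between the mutants (0.62 to 0.85), but not between WT and mutants (-0.19 to 0.00).

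The members and gene lists were chosen with earlier results of these data known. Genes named are those past the threshold in each line, the 20 rises and 10 falls by smallest of 3 changes, up to 4 members of each list by mean change, the 5 largest changes without a common sign, the subunit genes and Fos. Cx3cl1, Ccl7 and Vcam1 were added for their common rise, and Icam1, Mmp13, Ccl3 and Cxcl10 for the lack of a common sign. None of these is counted among the 94 named genes below. Other background correction, scaling, filters, probe rules, blocks, array weights, the methods' t-test and leaving out arrays or lines were tried as alternatives; a filter on detection in each line was added after seeing the data.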

Additional observations from a re-analysis of the deposited data

Results flagged for a closer look

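For 39 of the 94 genes named, the TNF response differed between the 3 lines by the moderated F test in limma (values are adjusted p-values), and 24 of the 39 had fitted changes of 1 sign in all lines.

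In 21 of the 39, TNF-treated and untreated cells of every line were above background on at least 1 array. Among all tested features measured in this way, Rela-/-Nfkb2-/- MEFs had the largest of the 3 changes in 4515 of 8030. Among the 21 genes it was so for 14. Those with a common sign were Adamts5 (0.00114), Hbegf (0.00206), Scx (0.00209), Lif (0.00227), Errfi1 (0.00401), Bmp4 (0.00529), Srxn1 (0.00679), Rrp9 (0.00996), Ppp1r3c (0.0131), Smad6 (0.0209), Gch1 (0.0236) and Hmox1 (0.026), and those without were Nfkbia (0.00123) and Dusp4 (0.00545). Rela-/-Relb-/-Rel-/- MEFs had the largest change of Inhba (0.00227), Sphk1 (0.0119), Fosl1 (0.0178) and Egr2 (0.0444), which had a common sign. WT MEFs had the largest change of Mmp3 (0.0021), which had one, and of Gbp2 (0.00191) and Gbp3 (0.00266), which had none. Gbp2 changed by 2.91, -0.30 and -1.25 in WT MEFs, Rela-/-Nfkb2-/- MEFs and Rela-/-Relb-/-Rel-/- MEFs.

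The other 18 had TNF-treated or untreated cells of at least 1 line not above background, so that the order of the lines is not known. With fitted changes of 1 sign these were Csf2 (0.000484), Mmp10 (0.0021), Cxcl16 (0.00331), Nfkbie (0.00401), Ccl5 (0.0119), Ephb6 (0.0215) and Myc (0.0344). Without 1 sign they were Plin4 (6.11e-05), Angpt1 (0.000109), Hoxd10 (0.000319), Traf1 (0.00105), Cxcl2 (0.00191), Arc (0.00206), Il1rn (0.00613), Atf3 (0.00741), Ptges (0.0124), Fos (0.0133) and Nppb (0.021). Fos changed by -1.83 in Rela-/-Nfkb2-/- and by 2.38 in Rela-/-Relb-/-Rel-/- MEFs.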

How the results depend on the processing

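With 2 arrays a group the calls were limited by the spread between arrays, whose differences had an SD of 0.30 (TNF) and 0.27 (untreated) in WT and of 0.46 to 0.67 in the mutants, and signals near background had no measurable fold. Of the 94 named genes, 53 could be tested on probes above background on all 12 arrays and all 53 kept call and direction there. All 94 did so with cyclic loess, array weights and eBayes with trend and robust.

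The mean effect of Fos (0.05, not past the threshold) turned negative under median scaling (-0.028), the authors' normalized values (-0.063), without WT untreated replicate 2 (-0.07), WT TNF replicate 2 (-0.02), Rela-/-Nfkb2-/- TNF replicate 2 (-0.11), Rela-/-Relb-/-Rel-/- untreated replicate 1 (-0.11), Rela-/-Relb-/-Rel-/- TNF replicate 2 (-0.08; -0.11 to 0.21 over all 12 single arrays left out) and all Rela-/-Relb-/-Rel-/- arrays (-1.11). Without all WT arrays the mean effects of Gbp3 (-0.82), Gbp2 (-0.77), Lum (-0.12) and Dcn (-0.0069) reversed; without all Rela-/-Nfkb2-/- arrays that of Angpt1 (0.36); without all Rela-/-Relb-/-Rel-/- arrays those of Arc (-0.35), Fosb (-0.0037) and Ifit3 (0.17). Without all Rela-/-Nfkb2-/- arrays 30 of the named genes lost their call. In the model of genotype plus treatment without interaction 18 lost it. Among the 18 were Mmp3, Adamts5, Sphk1 and Plk2 (limma adjusted p = 0.0575, 0.0956, 0.173 and 0.0812), which had a common sign.

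The mean effect gave 215 higher under median scaling (features with separated arrays 107 higher, F test 108, common sign 156 higher); 310 higher and 406 lower without interaction (with a common sign 304 and 405); 443 higher and 634 lower without WT (common sign 551 lower); 114 and 68 without Rela-/-Nfkb2-/- (common sign 91 and 62). By the methods' t-test 504 were higher and 451 lower before adjustment, 5 and 1 after. With the replicate block within genotype the mean effect gave 1391 and 1782, the common sign 992 and 1371, calls in each line 19 and 12 and the F test 417, and with the replicate block across genotypes calls in each line were 10 and 5 and the F test 285. The block within genotype moved 8 named genes past the threshold, and neither block ended the call of a named gene. The F test counted 36 on features above background on all 12 arrays and 57 on those above background in each line.

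Calls in each line were 10 higher and 3 lower with normexp, 3 lower with an offset of 50, 2 lower with cyclic loess, the authors' values or eBayes with trend and robust, 4 lower with array weights, 1 higher and 0 lower on features above background on all 12 arrays, 23 and 2 without WT, 0 lower without Rela-/-Nfkb2-/-, and 29 and 5 without Rela-/-Relb-/-Rel-/-. Separated arrays, which fewer lines make easier, numbered 923 and 1032 without WT, 611 and 896 without Rela-/-Nfkb2-/-, and 966 and 1432 without Rela-/-Relb-/-Rel-/-. Leaving out 1 array gave a mean effect for 470 to 815 higher and 673 to 1263 lower, a common sign for 352 to 630 and 531 to 1076, calls in each line for 3 to 6 and 0 to 2, separated arrays for 402 to 590 and 620 to 1072, and the F test for 83 to 195. Where no construction is named, the cause was not tested.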
